A study of Mus musculus with 7 samples.

Results

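The genes described here are the 9 mouse genes of the MHC class II antigen presentation machinery, read in islet RNA-seq of second-generation (F2) males. They were taken by name, through the match of Ensembl identifiers to GENCODE M21 symbols, from the 21899 genes in the count files, and all 9 were found. They are Cd74, H2-Aa, H2-Ab1, H2-Eb1, H2-DMa, H2-DMb1, H2-Oa, H2-Ob and Ciita. The list was drawn up after several of these genes had been seen to be higher in the AE-F2 library studied here, so their difference between the libraries is a description and was not tested. The study asked what androgen exposure (AE) of a pregnant mouse does to the islets of her male-line grandsons. C57BL/6 J dams (F0) were injected in late pregnancy with dihydrotestosterone in benzyl benzoate and corn oil (AE group) or with the same vehicle alone (control group), F1 sons were mated with unrelated wild-type females, and islets of the F2 sons were freed with collagenase and picked by hand. The labels name 7 islet samples, 3 from control-F2 and 4 from AE-F2 males. One library of each group was analysed, control-F2 replicate 1 and AE-F2 replicate 4, and the other 5 samples were not analysed here. The age of the F2 males, and whether a sample pools the islets of several males, are not given in the sources used here.

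MHC class II molecules are dimers of an α and a β chain that carry peptides from the lysosome to the surface of antigen-presenting cells and show them to CD4+ T cells. B cells, dendritic cells and many macrophages make them all the time, most other cells make them mainly after interferon-γ, and healthy islets hold resident macrophages that carry them. The chains assemble around the invariant chain and are loaded with peptide under the control of H2-M and H2-O. The genes of the chains are transcribed from promoters with a shared set of boxes on which the transactivator CIITA acts.

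Several of these genes share a promoter layout, and the stretch that holds it is shown first. RefSeq promoter windows on GRCm38.p6, which run from 250 bases before to 50 bases after a gene's start, were at hand for 6 of the 9 genes, H2-Aa, H2-Eb1, H2-DMa, H2-DMb1, H2-Oa and H2-Ob. They were searched on both strands for the letters GNAAC, from the X box that the RFX complex binds, followed after 25 to 30 bases by ATTGG, the Y box that NF-Y binds. The spacing and the letters were chosen with these sequences in view. The pattern was found for 5 of the 6 genes, in each case on the strand of the gene, and in the window of the related gene H2-Eb2. Of 32851 mouse promoter windows of the same length, 1.04% held it on either strand and 37.4% held the Y box letters alone. The 6 stretches lie on chromosome 17 and are printed from 5′ to 3′ on the strand of the gene, with the X box letters and the Y box in capitals.
H2-Aa, minus strand, chr17:34287863-34287908: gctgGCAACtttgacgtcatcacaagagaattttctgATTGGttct
H2-Eb1, plus strand, chr17:34305772-34305816: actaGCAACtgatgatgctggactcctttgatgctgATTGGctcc
H2-DMb1, plus strand, chr17:34153093-34153138: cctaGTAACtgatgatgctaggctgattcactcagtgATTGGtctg
H2-Oa, plus strand, chr17:34092299-34092344: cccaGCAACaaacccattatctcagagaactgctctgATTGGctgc
H2-Ob, plus strand, chr17:34238814-34238856: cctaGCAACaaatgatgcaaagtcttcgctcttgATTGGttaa
H2-Eb2, plus strand, chr17:34325539-34325583: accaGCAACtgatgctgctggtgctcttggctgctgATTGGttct

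The letters between the boxes number 28 in H2-Aa, H2-DMb1 and H2-Oa, 27 in H2-Eb1 and H2-Eb2, and 25 in H2-Ob. The Y box begins between 43 bases (H2-Oa) and 61 bases (H2-DMb1) before the start of the members, and 100 bases before that of H2-Eb2. The X box letters of H2-DMb1 are GTAAC and those of the other 5 genes GCAAC. Neither window of H2-DMa held the pattern, nor did the window of H2-DMb2, a near copy of H2-DMb1. A match of letters describes the sequence and is no evidence of binding in these islets.

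**Figure D1:**
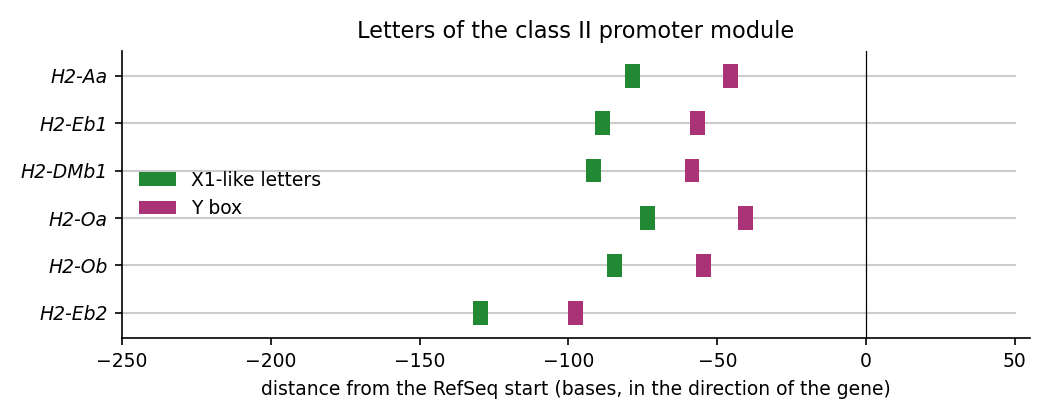
Position of the X box letters (green) and the Y box (purple) in the RefSeq promoter windows of 5 class II genes and H2-Eb2, as distance in bases from the annotated start, in the direction of the gene. The boxes stand 25 to 28 bases apart in the 6 windows, and only H2-Eb2 has its Y box as far as 100 bases before the start.

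The deposited values are estimated counts per gene, 16285888 in total for control-F2 and 21278513 for AE-F2, which was thus sequenced 1.31-fold deeper. Levels are given as CPM, counts rescaled so that every library has the same total. Differences are log2 ratios, AE-F2 divided by control-F2, after scaling with edgeR's TMM factors and adding 0.5 counts, each with a 95% Clopper-Pearson interval. The interval covers counting error between these libraries and leaves out the spread between animals, and with 1 library per group no test of the groups is possible. Of all genes, 13627 averaged 10 counts or more over both libraries and were compared. All 9 class II genes passed this minimum. H2-Oa, which averaged exactly 10, and H2-Ob and Ciita had fewer than 10 counts in control-F2 and passed through their counts in AE-F2. The tissue markers were those of islets, with Ins1 and Ins2 at 48775 and 128469 CPM in the control-F2 library and 50964 and 123712 CPM in the AE-F2 library. In bulk islets, more cells of a type and more RNA per cell cannot be told apart.

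In the AE-F2 library the 9 genes together were higher than in the control-F2 library, with 4091 counts (251 CPM) in control-F2 and 8046 counts (378 CPM) in AE-F2, a log2 ratio of 0.59 (interval 0.54 to 0.65) or 1.51-fold. For 8 of the 9 the whole counting interval was above equality, which held for 13.4% of all genes compared, and the same share of those genes, 13.4%, had an interval below it. A log2 ratio of 0.5 or more was found for 8 of the 9 and for 7.21% of all genes compared. Since the list was drawn up with these ratios known, and 3 of the 8 passed the minimum through the library in which they are high, nothing is read from these counts. The remaining gene, H2-DMb1, had an interval that included equality, and none of the 9 was below it. The median log2 ratio of the 9 was 0.64, against 0.00024 over all genes compared. Within the set the ratios fell in separate ranges. Cd74, the classical chains and H2-DMa lay between 0.55 and 0.64. H2-Ob and Ciita were 5.14-fold and 7.36-fold higher in AE-F2, from 6 and 8 counts in control-F2, and H2-Oa was at 0 counts in control-F2.

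Cd74 encodes the invariant chain, which fills the peptide groove of newly made class II dimers and steers them to the lysosome. It was the highest of the 9 genes, with 2098 counts (129 CPM) in the control-F2 library and 4024 counts (189 CPM) in the AE-F2 library. Its log2 ratio was 0.56 (0.48 to 0.63). Per kilobase of transcript, the scale on which genes can be compared with each other, Cd74 stood at 91.4 CPM per kilobase in control-F2 and 134 in AE-F2. It ranked 459th and 289th on that scale among the 13609 compared genes with a known transcript length.

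H2-Aa and H2-Ab1 encode the α and β chains of I-A, the class II molecule that C57BL/6 mice show at the cell surface. H2-Aa had 688 counts (42.2 CPM) in control-F2 and 1398 counts (65.7 CPM) in AE-F2, a log2 ratio of 0.64 (0.51 to 0.77). H2-Ab1 had 609 counts (37.4 CPM) in control-F2 and 1164 counts (54.7 CPM) in AE-F2, a log2 ratio of 0.55 (0.41 to 0.70). The pair kept nearly the same proportion. H2-Aa made up 53.0% of the counts of the pair in control-F2 (exact binomial interval 50.3 to 55.8) and 54.6% in AE-F2 (52.6 to 56.5).

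H2-Eb1 encodes the β chain of I-E. Mice of the C57BL/6 background carry a defective gene for its α partner and show no I-E at the surface, although H2-Eb1 is transcribed. It had 577 counts (35.4 CPM) in control-F2 and 1129 counts (53.1 CPM) in AE-F2, a log2 ratio of 0.59 (0.44 to 0.73). H2-Eb1 therefore stood beside H2-Aa and H2-Ab1 in the size of its difference, with intervals that overlap. The pseudogene of the α partner, H2-Ea-ps, was not analysed here.

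Cd74 and the 3 classical chains carried 97.1% of the counts of the 9 genes in control-F2 and 95.9% in AE-F2, so the summed difference is theirs. Their composition was close to the same in both libraries. Cd74 held 52.8% of the counts of these 4 genes in control-F2 (51.3 to 54.4) and 52.2% in AE-F2 (51.0 to 53.3). The corresponding shares were 17.3% and 18.1% for H2-Aa, 15.3% and 15.1% for H2-Ab1, and 14.5% and 14.6% for H2-Eb1, and for each gene the intervals of both libraries overlap. These shares lie within a library and do not depend on the scaling between libraries.

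Among abundant genes, ratios this far above equality were few. A log2 ratio of 0.5 or more was reached by 18 (0.299%) of the 6014 genes that averaged 500 counts or more, and Cd74 and the 3 classical chains were among those 18, while 50 (0.831%) stood at -0.5 or less. It was reached by 9 (0.259%) of the 3471 genes that averaged 1000 counts or more, which included Cd74 and H2-Aa, while 32 (0.922%) stood at -0.5 or less. The others at 0.5 or more were Amy2a5, an acinar amylase (0.63), Enpp2 (0.59), Ighm, the immunoglobulin μ heavy chain (6.32), Galnt18 (0.64), Dmbt1 (1.91), B2m (0.50) and Sult1d1 (0.64). The threshold of 0.5 and the list itself were chosen with the ratios of class II genes known, so nothing is read from their place among these genes.

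**Figure D2:**
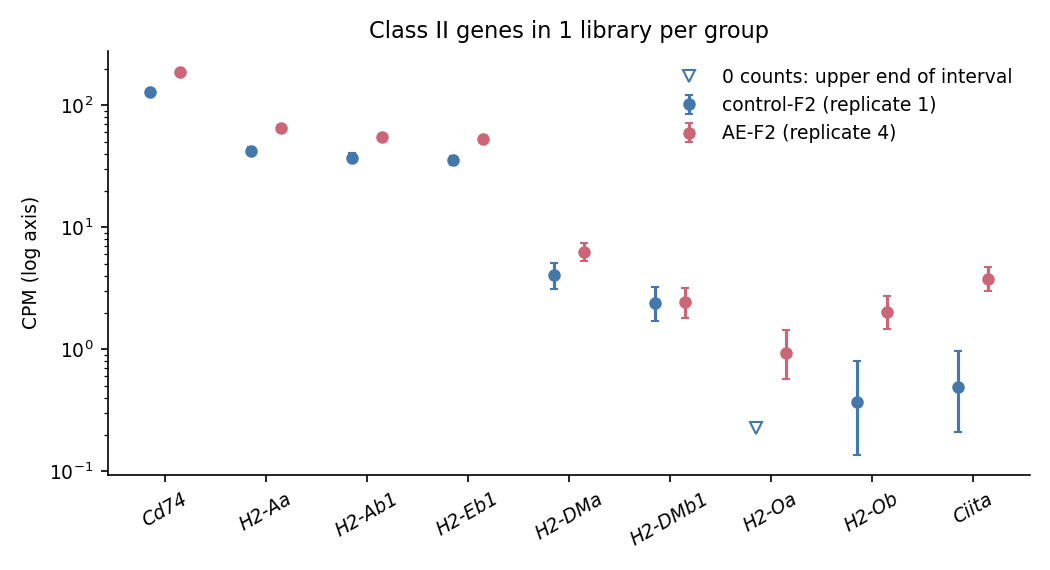
CPM (log axis) of the 9 class II genes in the control-F2 library (blue) and the AE-F2 library (red), with exact 95% Poisson intervals of the counts. The open triangle is the upper end of the interval for H2-Oa, which had 0 counts in control-F2. The AE-F2 point lies above the control-F2 point for all 9 genes, and the intervals of H2-DMb1 overlap. The genes were listed after several had been seen to be higher in AE-F2, and H2-Oa, H2-Ob and Ciita passed the minimum through AE-F2. Nothing is read from the separation of their intervals.

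**Figure D3:**
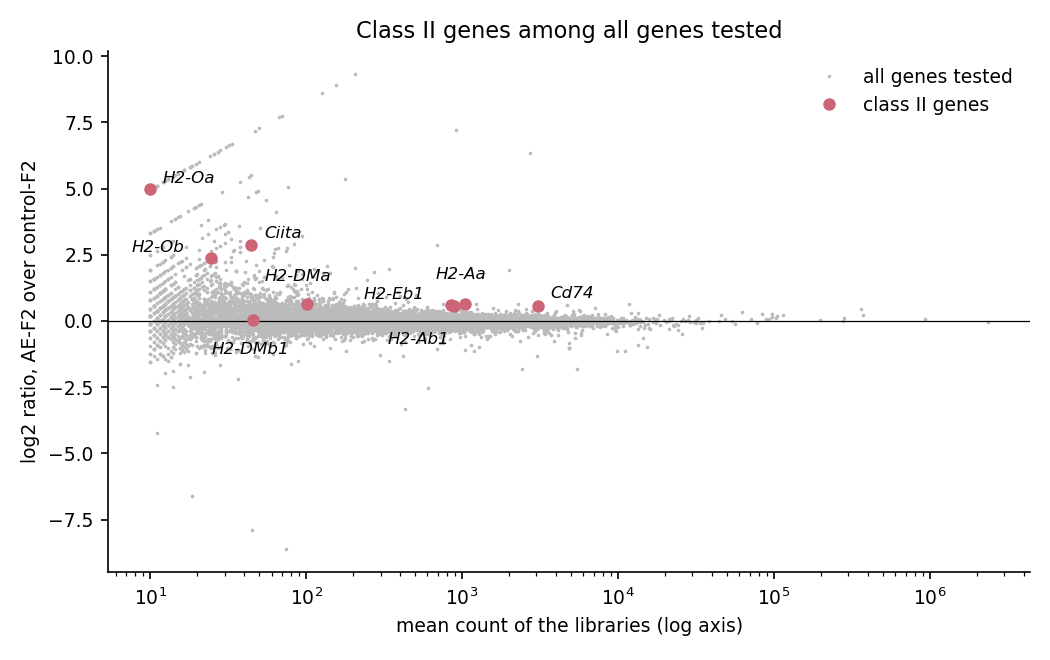
Log2 ratio (AE-F2 divided by control-F2) against the mean count of the libraries (log axis) for the 13627 genes compared (grey) and the 9 class II genes (red). H2-Aa, H2-Ab1, H2-Eb1 and Cd74 stand at the upper edge of the genes of their level, and H2-Ob, Ciita and H2-Oa lie among weakly expressed genes, where ratios scatter widely.

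H2-DMa and H2-DMb1 encode H2-M, which removes the invariant chain remnant from the groove and favours peptides that bind well. H2-DMa had 66 counts (4.05 CPM) in control-F2 and 135 counts (6.34 CPM) in AE-F2, a log2 ratio of 0.64 (0.22 to 1.10). H2-DMb1 had 39 counts (2.39 CPM) in control-F2 and 52 counts (2.45 CPM) in AE-F2, a log2 ratio of 0.03 (-0.59 to 0.67), so no difference was detectable at this depth. Its neighbour H2-DMb2, which encodes a nearly identical β chain and is not among the 9, had 1 count in control-F2 and 88 in AE-F2, a log2 ratio of 5.50 (3.56 to 11.40). The AE-F2 estimates of these copies were not whole numbers before rounding, as happens when reads are divided between similar genes, so the split is uncertain. Summed, H2-DMb1 and H2-DMb2 had 40 counts in control-F2 and 140 in AE-F2, a log2 ratio of 1.41 (0.91 to 1.97), with an interval that overlaps that of H2-DMa. H2-DMa, H2-DMb1 and H2-DMb2 together had 106 counts in control-F2 and 275 in AE-F2, a log2 ratio of 0.99 (0.67 to 1.33). H2-DMb2 took 2.50% of the summed H2-DMb1 and H2-DMb2 counts in control-F2 (0.063 to 13.2) and 62.9% in AE-F2 (54.3 to 70.9).

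H2-Oa and H2-Ob encode H2-O, a partner of H2-M that restrains it and is known above all from B cells and the thymus. H2-Oa had 0 counts in control-F2 and 20 counts (0.94 CPM) in AE-F2. Taking 3 counts as the limit that 0 allows in the control-F2 library, it was at least 5.12-fold higher in AE-F2. The counting interval, which also covers the error of the AE-F2 counts, begins at 3.79-fold. H2-Ob had 6 counts (0.37 CPM) in control-F2 and 43 counts (2.02 CPM) in AE-F2, a log2 ratio of 2.36 (1.22 to 3.98). Both H2-O genes were thus near or at 0 in the control-F2 library, in which H2-Aa had 688 counts. Summed, H2-O stood at 6 and 63 counts, a 7.50-fold difference (3.50 to 22.8). With 5 counts added in place of 0.5, the log2 ratio falls from 2.91 to 2.25 for summed H2-O and from 2.36 to 1.74 for H2-Ob. H2-O made up 5.41% of the counts of H2-O and H2-M in control-F2 (2.01 to 11.4) and 25.2% in AE-F2 (19.9 to 31.1). With H2-DMb2 counted in H2-M the shares were 5.36% (1.99 to 11.3) and 18.6% (14.6 to 23.2). H2-Oa and H2-Ob passed the minimum through AE-F2 and were listed with their ratios known. Nothing is read from the separation of these intervals.

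Ciita encodes the class II transactivator, which does not bind DNA itself and is recruited by the proteins on the X and Y boxes. It had 8 counts (0.49 CPM) in control-F2 and 81 counts (3.81 CPM) in AE-F2, a log2 ratio of 2.88 (1.91 to 4.22) or 7.36-fold.

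The minor genes were also set against the abundant ones within each library. H2-DMa and H2-DMb1 held 2.58% of their summed counts with H2-Aa, H2-Ab1, H2-Eb1 and Cd74 in control-F2 (2.11 to 3.11) and 2.37% in AE-F2 (2.04 to 2.73), and with H2-DMb2 added 2.60% (2.13 to 3.14) and 3.44% (3.05 to 3.87). On the same scale H2-O held 0.151% in control-F2 (0.055 to 0.328) and 0.810% in AE-F2 (0.623 to 1.04). Ciita held 0.201% (0.087 to 0.396) and 1.04% (0.826 to 1.29). The intervals of the libraries overlap for H2-M without H2-DMb2. With H2-DMb2 they overlap only between 3.05% and 3.14%, and that sum had a log2 ratio of 0.99 (0.67 to 1.33). Cd74 and the classical chains together were at 0.58 (0.52 to 0.63). The intervals lie apart for H2-O and Ciita, but their genes passed the minimum through AE-F2 and were listed with these ratios known. Nothing is read from that separation. H2-DMb2, outside the 9, was at 0.025% in control-F2 and 1.13% in AE-F2. H2-Eb2, a β chain gene next to H2-Eb1, was at 0% (0 of 3972 counts, which allows a share of up to 0.0755%) and 0.464%. H2-Eb2 had 0 counts in control-F2 and 36 in AE-F2. It was at least 9.21-fold higher against the limit of 3 counts, with a counting interval that begins at 7.11-fold. H2-DMb2 and H2-Eb2 also passed the minimum through AE-F2.

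**Figure D4:**
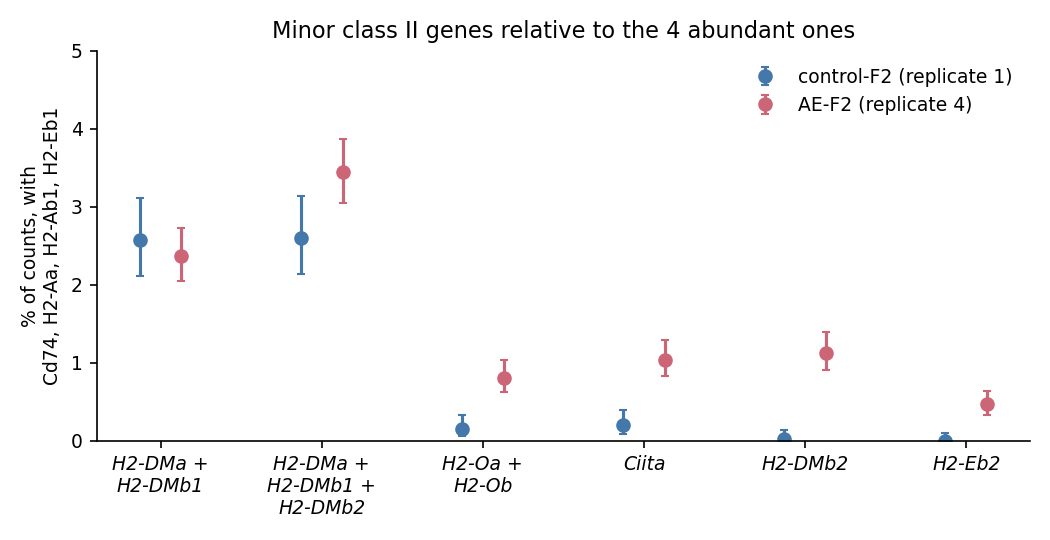
Share of counts (%) that each minor class II gene or pair takes of its sum with H2-Aa, H2-Ab1, H2-Eb1 and Cd74, in the control-F2 library (blue) and the AE-F2 library (red), with exact 95% binomial intervals. The H2-M pair sits at 2.58% and 2.37% without H2-DMb2, with overlapping intervals. With H2-DMb2 the shares are 2.60% and 3.44%, and the intervals overlap only at their ends. H2-O, Ciita, H2-DMb2 and H2-Eb2 are each higher in the AE-F2 library. Their genes passed the minimum through AE-F2, so nothing is read from the separation of their intervals.

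Ordered by level per kilobase in the AE-F2 library, the genes ran Cd74 (134 CPM per kilobase), H2-Aa (58.2), H2-Ab1 (45.1), H2-Eb1 (31.8), H2-DMa (3.83), H2-DMb1 (1.74), H2-Oa (0.86), H2-Ob (0.76) and Ciita (0.63). The counting intervals of neighbours lie apart down to H2-DMb1 and overlap for H2-DMb1 and H2-Oa and among H2-Oa, H2-Ob and Ciita. In the control-F2 library the first 6 genes stood in the same order, at 91.4, 37.5, 30.9, 21.2, 2.44 and 1.71 CPM per kilobase, and the intervals of H2-DMa and H2-DMb1 overlapped. Ciita (0.082), H2-Ob (0.138) and H2-Oa (0) could not be ordered there. Lengths are those of the principal GENCODE M21 transcript, so the order rests on that choice of isoform.

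The genes of the proteins that bind class II promoters had log2 ratios with a median of -0.09. None of the 7 had an interval above equality and 2 had one below, against 13.4% of all genes compared in each direction, and nothing is read from so few genes. Rfx5, a subunit of the RFX complex, had 573 counts in control-F2 and 791 in AE-F2, a log2 ratio of 0.08 (-0.07 to 0.24). Rfxank, another RFX subunit, was at -0.26 (-0.49 to -0.03), and Nfya, a subunit of NF-Y, at -0.24 (-0.46 to -0.02). Nfyb, Nfyc, Creb1 and Rfxap had intervals that included equality.

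Of 8 lysosomal genes that cut antigens or the invariant chain, 7 had an interval above equality, against 13.4% of all genes compared, with a median log2 ratio of 0.24. In abundant genes the interval is narrow, so that ratios as small as 0.08 are counted among the 7. Ctsh had 88 counts in control-F2 and 208 in AE-F2, a log2 ratio of 0.85 (0.49 to 1.24). Ctss, which encodes cathepsin S, the protease that trims the invariant chain in antigen-presenting cells, had 282 and 514 counts, a log2 ratio of 0.48 (0.27 to 0.70). Ifi30, a lysosomal thiol reductase, was at 0.41 (0.17 to 0.66). The most abundant cathepsin genes were closer to level, with Ctsl at 0.15 (0.07 to 0.23), Ctsb at 0.08 (0.02 to 0.13) and Ctsd at 0.03 (-0.02 to 0.08). Ctsz, the next in abundance, was at 0.23 (0.10 to 0.37).

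Of 7 genes of class II turnover and costimulation, 4 had an interval above equality and none below, against 13.4% of all genes compared in each direction. One of the 4, Cd86, passed the minimum through AE-F2. March1 encodes a ubiquitin ligase that removes class II molecules from the surface and Cd83 a protein that opposes it. March1 had 12 counts in control-F2 and 43 in AE-F2, a log2 ratio of 1.42 (0.51 to 2.52), and Cd83 had 46 and 140, a log2 ratio of 1.21 (0.73 to 1.74). The costimulatory ligand Cd86 had 8 and 32 counts, a log2 ratio of 1.55 (0.47 to 2.95), whereas its relative Cd80 had 11 and 9. Cd274, which encodes PD-L1, was the most abundant of the list at 322 and 400 counts, with an interval that included equality.

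The class I genes H2-K1 and H2-D1, which nearly all cells express and which lie in the same chromosomal complex, had 10326 summed counts in control-F2 and 13756 in AE-F2, a log2 ratio of 0.03 (-0.01 to 0.07). Their light chain gene B2m, which lies outside that complex, had 1104 and 2041 counts, a log2 ratio of 0.50 (0.40 to 0.61). Of 7 class I genes, 4 had an interval above equality, against 13.4% of all genes compared, B2m, Tap1, Nlrc5 and, by a log2 ratio of 0.06, H2-D1. Interferon-γ induces both classes. Of 15 genes of the response to it, 6 had an interval above equality and none below, against the same 13.4% in each direction, with a median log2 ratio of 0.21. Irf1, a transcription factor of this response, was at 0.14 (-0.02 to 0.31), and the chemokine gene Cxcl9, one of the 6, had 1 count in control-F2 and 37 in AE-F2, through which it passed the minimum.

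B cell markers were higher in the AE-F2 library, with 191 counts over the 10 markers in control-F2 and 998 in AE-F2, higher by between 3.43-fold and 4.71-fold over the counting interval. Per 100 counts of Cd74 and the classical chains that is 4.81 in control-F2 and 12.9 in AE-F2. Of the 10, 9 had 3 counts or fewer in control-F2, with Cr2, Blk and Fcrla at 0, and all 10 had at least 16 counts in AE-F2. Ms4a1, which encodes CD20, had 3 counts in control-F2 and 150 in AE-F2, Cd79b had 2 and 94, and Pax5 had 1 and 85. Cd79a, at 178 and 391, was the exception in control-F2. Without it, left out after its value was seen, the 9 other markers summed to 13 and 607 counts. That is 0.327 counts per 100 counts of Cd74 and the classical chains in control-F2 and 7.87 in AE-F2. The part of these cells in the class II difference was not tested.

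Of 9 general leukocyte markers, 7 had an interval above equality, against 13.4% of all genes compared, and 1 of these, Cd37, passed the minimum through AE-F2. The sum stood at 416 counts in control-F2 and 1578 in AE-F2, 2.91-fold higher (2.61 to 3.25) and so further apart than the summed class II genes. Ptprc, which encodes CD45, had 66 and 343 counts. Tyrobp and Fcer1g, adaptors of myeloid receptors, were level at log2 ratios of 0.07 and 0.02. Per 100 counts of Cd74 and the classical chains, the leukocyte markers had 10.5 counts in control-F2 and 20.5 in AE-F2. The part of leukocyte number in the class II difference was not tested.

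The 13 macrophage markers, all of them detected in both libraries, summed to 1467 counts in control-F2 and 2269 in AE-F2, a log2 ratio of 0.25 (0.15 to 0.34). Per 100 counts of Cd74 and the classical chains they had 36.9 in control-F2 and 29.4 in AE-F2. Of the 12 that passed the minimum, 1 had an interval above equality and 1 below, near the 13.4% of all genes compared in each direction. Lyz2, which encodes lysozyme, had 112 counts in control-F2 and 571 in AE-F2, a log2 ratio of 1.96 (1.67 to 2.27). C1qa was the one below, at -0.25 (-0.42 to -0.09), and Csf1r, the receptor that macrophages depend on, was at 0.17 (-0.10 to 0.45). The 12 markers other than Lyz2, left out after its value was seen, summed to 1355 and 1698 counts, a log2 ratio of -0.06 (-0.16 to 0.05). Against Cd74 and the classical chains they had 34.1 counts per 100 in control-F2 and 22.0 in AE-F2. The part of macrophages in the class II difference was not tested.

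Of 11 dendritic cell markers, 7 passed the minimum of 10 counts, 3 of these had an interval above equality and none below, against 13.4% of all genes compared in each direction. Of the 3, Ccr7 and Flt3 passed through their counts in AE-F2, where they are high, so nothing is read from the count. Wdfy4 had 15 counts in control-F2 and 151 in AE-F2, Ccr7 had 1 and 40, and Flt3 had 2 and 22, although B cells also express Wdfy4 and Ccr7. Zbtb46, Itgax and Clec9a had intervals that included equality. Xcr1 was at 0 counts in control-F2 and 7 in AE-F2, and Cd209a and Batf3 had 3 counts or fewer in both. Summed over the list there were 210 counts in control-F2 and 501 in AE-F2. The part of dendritic cells in the class II difference was not tested.

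T cells of the mouse carry little class II. All 9 T cell markers were at 7 counts or fewer in control-F2, 4 of them at 0 (Cd3e, Cd3d, Cd3g and Trbc2), and they summed to 19 counts there and 213 in AE-F2. Lymph node stroma markers had 11 counts in control-F2, with 4 of 6 at 0 (Ccl21a, Madcam1, Glycam1 and Chst4), and 199 in AE-F2, nearly all from Cxcl13 (5 and 123) and Ccl19 (6 and 69). The part of such tissue was not tested. Endothelial cells can also be induced to make class II. Their 5 markers were level in sum, with 8972 counts in control-F2 and 11615 in AE-F2, a log2 ratio of -0.01 (-0.05 to 0.03). Marker levels do not measure class II RNA per cell, and the part of endothelial cells in the class II difference was not tested.

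**Figure D5:**
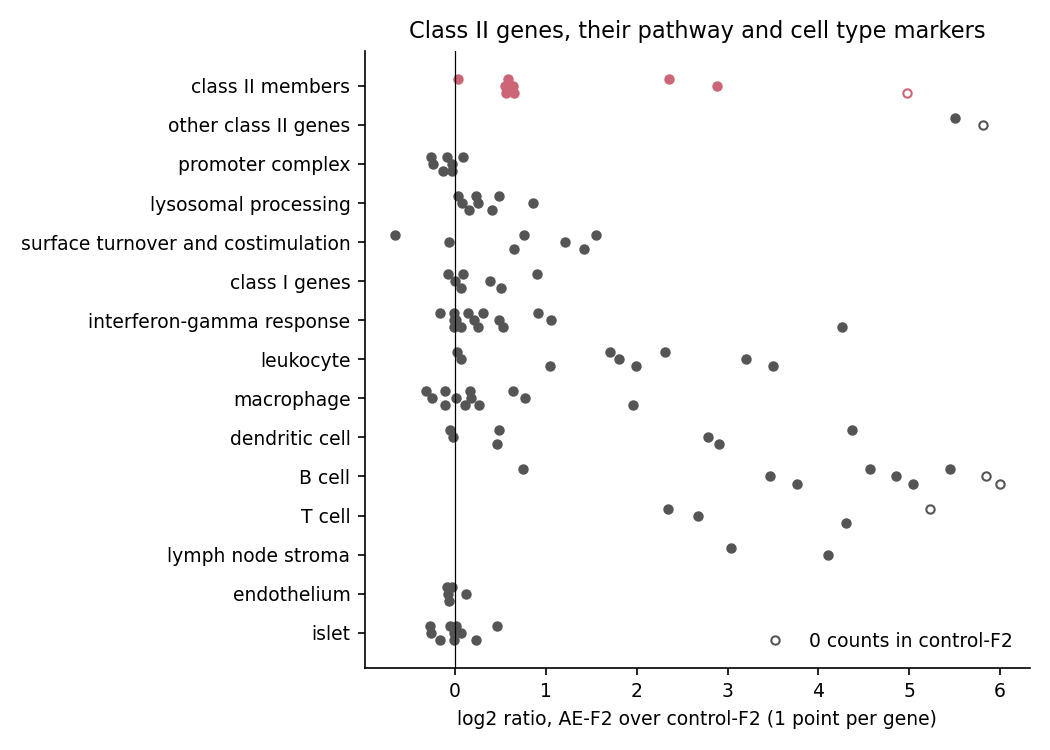
Log2 ratio (AE-F2 divided by control-F2) for the class II genes (red) and each other list of genes (grey), 1 point per gene that averaged 10 counts or more, with open points for genes at 0 counts in control-F2, whose ratio depends on the added 0.5 counts. Most class II genes stand near 0.6, and promoter factors, endothelial and most macrophage markers stand near 0. H2-Ob, Ciita, H2-Oa and nearly all B and T cell markers plotted had fewer than 10 counts in control-F2, so the minimum keeps them only where AE-F2 is high.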

How the data were processed

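RNA-seq of mouse islets was taken from 2 libraries, grouped by the sample labels. The authors enriched mRNA with Oligo (dT) beads, sequenced it, aligned reads with HISAT2 according to the methods, and deposited estimated counts per gene (expected counts), not scaled for depth or length. The submitters' processing notes name Bowtie2, RSEM and DESeq2. Genome build and annotation are not given in the sources used here. Of the values, 8.56% (control-F2) and 9.28% (AE-F2) were not whole, and counts were rounded before comparison.

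Symbols (21806 of 21899 identifiers) and transcript lengths came from GENCODE M21, and promoter windows from RefSeq on GRCm38.p6. TMM factors were computed with edgeR 4.0.16 in R 4.3.3 on genes averaging 10 counts or more, and intervals with scipy 1.17.1. No model and no p-value was computed, since each group had 1 library. Counts of PCR reads are not independent molecules, so intervals and limits cover counting error only. The deeper AE-F2 library gives the smaller counting error at the same level. The named genes are the 9 members, abundant genes with a log2 ratio of at least 0.5 and, from each other list, up to 4 of the most abundant members and those past 2-fold. Others (Rfxank, Rfxap, Nfya, Ctss, Ctsh, Ifi30, Cd80, Tap1, Nlrc5, Tyrobp, Fcer1g, and the B cell, dendritic cell, T cell and stroma markers named for counts of 0 to 3) were chosen after their values were seen, and not all genes that the rule covers are printed, 1 of which is not reported here. Members and lists were chosen with earlier results of these data known. Alternatives were other scalings with DESeq2 1.42.0 or library totals, minimum counts, pseudocount, thinning, and removal of GC content and length trends. Counting H2-DMb2 with H2-M was chosen after seeing the data.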

Additional observations from a re-analysis of the deposited data

How the results depend on the processing

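The summed log2 ratio of the class II genes ranged from 0.57 to 0.60 over the 8 alternatives. Under a minimum mean of 50 counts the sum covers only Cd74, the classical chains and H2-DMa, at 0.59. H2-M is then H2-DMa alone, at 0.65. No value whose interval excluded equality changed direction. H2-DMb1, whose interval included equality, turned from a log2 ratio of 0.03 to -0.0084 with 5 counts added in place of 0.5 and to -0.011 with GC content and length trends removed. Of the 108 recomputed values, 106 stayed within the counting interval of the reported value or, for the number of genes higher, within 1.5 times of it. One exception was H2-M with H2-DMb2 counted in it, chosen after seeing the data, at a log2 ratio of 0.99 in place of 0.45. The other was a minimum mean of 50 counts, under which 5 genes had an interval above equality in place of 8. H2-Oa, H2-Ob and Ciita then leave the comparison, as does H2-DMb1, which was not among the 8. H2-O and Ciita have no value there. The number was 7 with AE-F2 counts thinned and with GC content and length trends removed, since H2-Oa, at an average of exactly 10 counts, then falls under the minimum. With 5 counts added, the log2 ratio was 2.25 for H2-O, 1.74 for H2-Ob and 2.34 for Ciita. Depth limits H2-DMb1, H2-Oa, H2-Ob and Ciita most. No paired analysis was possible because the libraries analysed carry different replicate numbers, and leaving out a replicate was not possible with 1 library per group.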
